A study of Mus with 2 samples.

Results

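Macrophage cytokine genes outside the IL-1 family, 10 in number, were examined in bone marrow derived macrophages (BMDMs) exposed to an agonist of the farnesoid X receptor (FXR). They are the inflammatory cytokines Tnf, Il6, Il12a, Il12b and Il23a, the anti-inflammatory cytokine Il10, the lymphocyte growth factor Il15, and the colony stimulating factors Csf1, Csf2 and Csf3. The list was set by name and not by measured values, although earlier results of these data were known when it was chosen. A probe was matched for 9 of the 10, out of 20144 genes with a matched probe on the array, and none was matched for Il12b in the transcript table used. This does not mean that the array lacks a probe for Il12b, which was not analysed here. Of these 9 genes, 4 stood well above background on 1 array or both, namely Tnf, Csf1, Il15 and Il10.

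The cells came from the marrow of male C57BL6/J mice aged 10 weeks, grown for 7 d with 10 ng/mL of M-CSF and then polarized for 24 h with 10 ng/mL of IL-4, the M2 condition. Either 10 µM of GW4064, a synthetic FXR agonist, or its solvent DMSO was present during these 24 h, and both groups therefore shared M-CSF, IL-4 and the solvent. There was 1 one-colour Agilent array for DMSO and 1 for GW4064, so that no gene has a replicate error or a p-value, and precision is limited by how few arrays there were. The number of mice behind each culture was not given in the sources used here, and the GW4064 sample carries a free-text description that speaks of DMSO, against its title, source and treatment fields.

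Macrophages release these proteins when microbial products or other cytokines reach their receptors, and the transcripts are mostly short-lived. TNF and IL-6 start local and systemic inflammation, whereas IL-12 and IL-23 are dimers built on the shared p40 chain of Il12b, joined to the p35 chain of Il12a or the p19 chain of Il23a, and steer T cells. IL-10 restrains the same program, and IL-4 polarization is known for low output of the inflammatory cytokines. CSF1, also called M-CSF, keeps macrophages alive, CSF2 drives inflammatory myeloid cells, and CSF3 drives neutrophil production.

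Levels are given as the processed signal of a spot, a brightness after subtraction of the background, and differences as log2 GW4064 minus DMSO after the 75th percentile of each array (1209 with DMSO, 1265 with GW4064) had been set equal. A spot counts as well above background by the mark of the scanner software, and the lowest such signals were 15.7 with DMSO and 15.1 with GW4064. The probes for Tnf, Il10 and Csf2 and 1 of the 3 probes for Csf1 were printed 10 times, which gives the error of the measurement on the array but not that between cultures. For probes printed once, the error is the one the scanner software estimated for the spot. Signals of different probes are not on a common scale, so the levels of different genes were not ranked. Over the whole array 13532 genes were measured, and with GW4064 2.04% of them lay 2-fold or more above their DMSO level and 2.71% lay 2-fold or more below it. These are 276 and 367 genes, and centring on the added spike-in RNA in place of the percentile gave 211 and 522.

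Of the 4 cytokine genes above background, 1 was past 2-fold downward and 0 upward, and the median log2 difference was -0.44, against 0.0068 over all genes measured. The gene past 2-fold was Il10. Csf1 and Il15 were lower by less than 2-fold, and Tnf was equal on both arrays within the spread of its copies. With only 4 genes measured, the share past 2-fold cannot be set against 2.71% with any precision. Less RNA per cell and fewer cells of a type cannot be told apart in these bulk samples.

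Il10 encodes the main anti-inflammatory cytokine of macrophages. Its probe (NM_010548) had a dim signal on both arrays. On the DMSO array the 8 copies left after marked spots were removed had a lowest signal of 36.7, a median of 42.7 and a highest of 63.0, and the software placed all 8 well above background. On the GW4064 array the 9 copies left had a lowest signal of 10.0, a median of 14.7 and a highest of 36.1, and 3 of them were well above background. The kept copies did not overlap between the arrays, and the share of other probes printed 10 times that also did not was not counted. By the means of the kept copies Il10 was 3.03-fold lower with GW4064, a log2 difference of -1.60. Its size is uncertain, because most copies on the GW4064 array did not stand well above background.

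Each of the 7 copies kept on both arrays was lower with GW4064, with differences between -2.07 and -0.81 and a mean of -1.47 ± 0.48 (SD over 7 copies). The copies did not all show the same size of decrease. In the 3 copies well above background on both arrays, a selection made after the values were seen and one that favours the brighter GW4064 spots, the differences were -1.42, -0.87 and -0.81, with a mean of -1.03 ± 0.34 (SD) or 2.04-fold. The copies left out as outliers were at 35.2 and 118.9 on the DMSO array and at 41.5 on the GW4064 array, so that with them the arrays overlapped. Over all settings Il10 lay between -1.79 and -0.50. A normexp background correction, whose offset of 50 draws dim signals together, gave -0.50, so that Il10 was no longer past 2-fold. Spots lying near 2 or more others that differed 8-fold or more within 300 µm, called damaged areas here, held 2 of the 10 copies and 16.5% of all spots, and Il10 was at -1.63 without them.

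**Figure D1:**
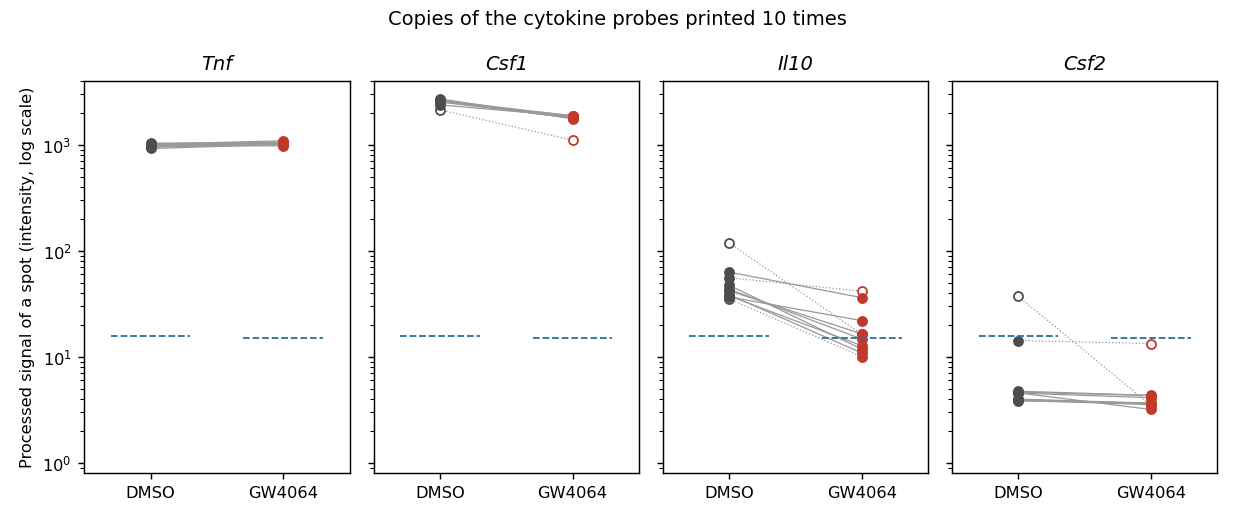
Processed signal (intensity, log scale) of the 10 copies of the probes for Tnf, Csf1, Il10 and Csf2 on the DMSO array (grey) and the GW4064 array (red), with a line joining the spots at the same place of the layout. Open points and dotted lines mark spots left out by the software's outlier mark, and the blue dashes are the lowest signals well above background (15.7 and 15.1). The copies of Tnf lie level, those of Csf1 and Il10 fall, and those of Csf2 lie below the dashes apart from 1 marked spot.

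Of the 399 probes printed 10 times, 144 were well above background on neither array, so that no difference was given for them. Of the 244 that were well above background on both arrays, 4 were 2-fold or more lower and 8 higher. Another 8 passed on the DMSO array alone, and 1 of these, that for Il10, was 2-fold or more lower. These 8 probes are too few to say how rare such a difference is. The spread over copies grew toward the background, with a median SD of 0.079 for the 244 probes and 0.34 for the 8. With so small a spread, copies can all lie on 1 side of 0 at a small difference. All 10 copies were lower for Batf (-0.15) and all 10 were higher for C1qc (0.14).

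Tnf encodes tumor necrosis factor, a membrane-bound cytokine that is cut free at the cell surface. Its probe (NM_013693) had signals between 925 and 1039 on the DMSO array, with a median of 992, and between 980 and 1093 on the GW4064 array, with a median of 1038. All 10 copies were kept on both arrays. Once the arrays had been scaled, 5 copies were higher and 5 lower with GW4064, between -0.065 and 0.063, and the mean difference was 0.0014 ± 0.045 (SD over 10 copies). The difference of Tnf was thus far smaller than the spread over its copies. It was -0.19 after centring on the added spike-in RNA, a setting that moved the median of all genes to -0.18.

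Csf1 encodes M-CSF, the growth factor in which these cells had been raised, and was measured by 3 probes. The probe printed 10 times (NM_007778) had signals between 2388 and 2722 on the DMSO array, with a median of 2596, and between 1768 and 1888 on the GW4064 array, with a median of 1824, over 9 kept copies on each. These copies did not overlap between the arrays, which again was not set against the other probes printed 10 times. Each of these 9 copies was lower with GW4064, between -0.69 and -0.43, with a mean of -0.57 ± 0.072 (SD over 9 copies), or 1.48-fold. The probes matched to NM_001113530, another transcript of the gene, fell from 460 to 350 and from 466 to 339. Their log2 differences were -0.46 and -0.52, each with an error of 0.20 by the software's estimate. Over the 3 probes Csf1 had a difference of -0.52, or 1.43-fold, and between -0.71 and -0.49 over all settings tried.

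Il15 encodes a cytokine that macrophages present to natural killer and memory T cells. Its single spot (NM_008357) had a signal of 258 ± 26.0 with DMSO and 212 ± 21.4 with GW4064, where the errors are those of the software. The log2 difference was -0.35 with an error of 0.21, or 1.28-fold lower, and lay between -0.54 and -0.30 over the settings. The difference exceeded its error by less than 2-fold and rests on 1 spot per array.

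**Figure D2:**
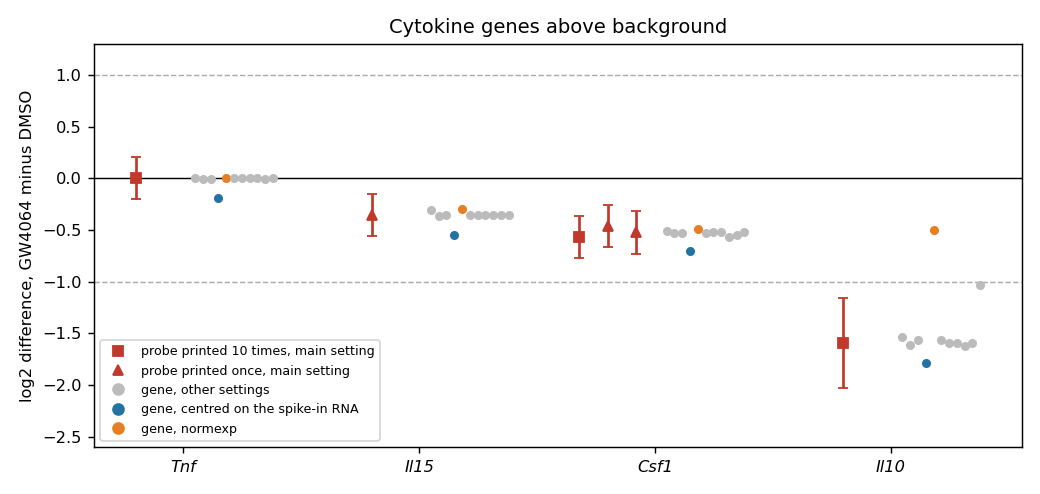
log2 difference, GW4064 minus DMSO, of the 4 cytokine genes above background. Red squares and triangles are single probes with the error the scanner software estimates (for Il10, most copies on the GW4064 array were not well above background), dots at the right of each gene are the gene under the other settings, and dashed lines mark 2-fold. Tnf sits at 0, Il15 and Csf1 between 0 and -1 and Il10 below -1, except after normexp (-0.50).

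The other 5 matched genes stood well above background on neither array, and no fold change is given for them. Csf2, which encodes GM-CSF, had 9 kept copies with signals between 3.83 and 14.2 on the DMSO array, with a median of 4.54, and 9 between 3.18 and 4.32 on the GW4064 array, with a median of 3.65. A further copy on the DMSO array had 37.1 and was marked as an outlier among its copies. Csf3 had 4.36 and 3.92, Il12a 3.93 and 3.60, and Il23a 3.71 and 3.47, with DMSO and with GW4064 respectively. For these 3 genes the error estimated for each spot was nearly as large as its signal.

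Il6 was the only one of the 5 with a higher signal on the GW4064 array, at 7.38 ± 3.63 against 3.81 ± 3.79 with DMSO. Both signals lay below the lowest that counted as well above background. Without a filter the log2 difference of Il6 was 0.89 with an error of 1.60, so that no difference was detectable. Those of Il12a, Il23a and Csf3 were -0.19, -0.16 and -0.22, next to a median of -0.16 over the 15453 probes that were well above background on neither array. Transcripts of Il6, Il12a, Il23a, Csf2 and Csf3 were therefore not detectable in these cultures at this signal over background, and nothing is known here of their change.

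The receptors were described from a list of 17 genes, all of them with a matched probe and 15 of them measured. There were 7 higher and 8 lower receptors, 0 were 2-fold or more different either way, and their median was -0.098. With a threshold of 1.5-fold, which 4.39% of all genes passed upward and 5.56% downward, 0 receptors were higher and 1 was lower. That gene was Tnfrsf1b, which encodes the second TNF receptor, with a signal of 9391 with DMSO and 6316 with GW4064 and a log2 difference of -0.64. It lay between -0.83 and -0.64 over the settings. Tnfrsf1a, the gene of the other TNF receptor, had -0.13, next to 0.0014 for Tnf itself.

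Csf1r encodes the receptor of CSF1 and marks macrophages. Its 3 probes had differences of -0.13, -0.22 and -0.37, with a mean of -0.24. The remaining receptors in this paragraph were chosen after their values were seen. Il10ra, the ligand-binding chain of the IL-10 receptor, fell from 4312 to 3461 (-0.38), whereas Il10rb, its partner chain, had 0.15. Il6ra (-0.10), Il6st (-0.25), Il15ra (0.017) and Csf3r (0.011) differed by less than 1.5-fold. The GM-CSF receptor genes Csf2ra and Csf2rb had 0.11 and 0.13. Csf2rb2, a close copy of Csf2rb whose probes may share target with it, had 0.16. Each probe of these genes had an error of 0.20 by the software's estimate, so that no difference was resolved. All 15 receptors were lower when centred on the spike-in RNA, so that the 7 increases hold only relative to the other genes of the array. Il23r and Il2rb were not well above background.

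Release of TNF and decay of cytokine mRNA were followed by 16 genes, all measured, of which 8 were higher and 8 lower, with a median of -0.0045. Past 2-fold, 1 gene was lower and 0 were higher. Timp3, whose product inhibits the TNF-cleaving protease ADAM17 and other metalloproteases, had signals of 646 with DMSO and 221 with GW4064, which is -1.61 on the log2 scale or 3.05-fold lower, and lay between -1.80 and -1.44 over the settings. The other genes of this list were chosen after their values were seen. Adam17 itself had 0.13, the mean of 2 probes at 0.30 and -0.044, and lay between -0.078 and 0.19 over the settings. Its partners Rhbdf1 and Rhbdf2 had -0.51 and 0.35. Zfp36, which binds the AU-rich tails of Tnf and other cytokine mRNAs and speeds their decay, had -0.031, and Zc3h12a, a nuclease for Il6 and Il12b mRNA, had -0.0098. Dusp1, a phosphatase that limits p38 signaling, was the only other gene past 1.5-fold, at -0.60.

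Among 46 further cytokines outside the IL-1 family, 45 had a matched probe and 24 were measured, with 12 higher, 12 lower and a median of 0.0033. A 2-fold threshold was passed by 1 upward and 1 downward, both of them well above background on 1 array only. Every gene of this list named here was chosen after its value was seen. Tnfsf4, which encodes OX40 ligand, went from 14.5, not well above background, to 40.4. It was 2.45-fold higher when set against the lowest signal well above background on the DMSO array. Il34, the second ligand of the CSF1 receptor, was 2.30-fold lower by its own signals, from 33.7 to 15.3, the latter not well above background. Both rested on 1 dim spot, and after normexp their differences were 0.086 and -0.42. Past 1.5-fold were also Tnfsf9 (0.67), and in the other direction Clcf1 (-0.79), Tnfsf13b (-0.60) and Lif, whose bound was -0.85. After normexp none of these 4 was past 1.5-fold (0.47, -0.56, -0.49 and -0.42), and Tnfsf9 and Tnfsf13b were also within it at 0.48 with the spike-in RNA and -0.54 with quantile normalization, respectively. Spp1, which encodes osteopontin, had 0.46, and Mif, the macrophage migration inhibitory factor, had 0.48. Tgfb1, printed 10 times, had -0.073 with an SD of 0.058 over its copies. Il27 and Ebi3, the subunit genes of IL-27, had -0.11 and -9.2e-05.

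**Figure D3:**
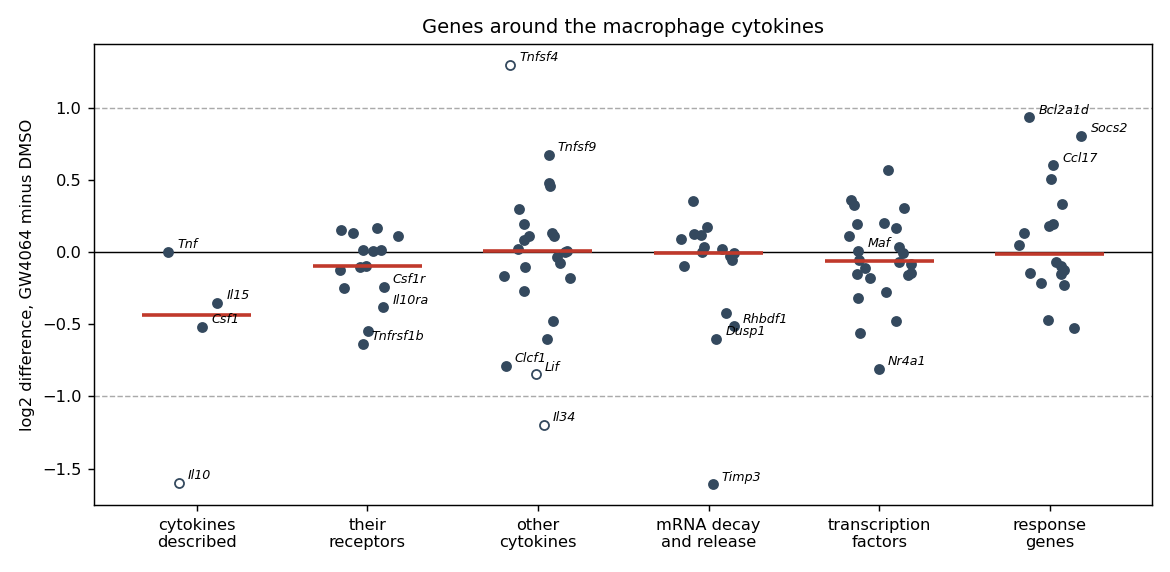
log2 difference, GW4064 minus DMSO, of each measured gene of 6 lists. Open points are genes well above background on 1 array only, red bars are medians and dashed lines mark 2-fold. Most genes lie within 1.5-fold, and those past 2-fold are Il10, Il34, Timp3 and Tnfsf4.

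The labelled cell type was borne out by its markers. Of 12 macrophage genes 11 had a matched probe and all 11 were measured, with a median of 0.062 and differences between -0.25 (Adgre1) and 0.14 (C1qc), and a summed signal of 372866 with DMSO and 355964 with GW4064 after scaling. All 11 were lower after centring on the spike-in RNA, with a median of -0.13. Here and below, sums with GW4064 are scaled and the signals of single probes are not. Each sum takes 1 probe per gene and is weighted toward the brightest, such as Itgax in the dendritic list (186594 with DMSO). Markers of some other cells were lower, as were Il10, Csf1 and Il15. Of 16 stromal genes 15 were measured and 13 were lower, with a median of -0.76 and a summed signal of 41500 with DMSO and 22314 with GW4064, and stromal cells are known to make Csf1, Il34 and Timp3. Sparc fell by 0.80 on the log2 scale over its 2 probes, 1 of which went from 22294 to 12535, Col1a2 from 10058 to 5296 (-0.99), Acta2 from 2857 to 1446 (-1.05), Col1a1 from 2182 to 1390 (-0.72) and Dcn from 1191 to 676 (-0.88), whereas Lum stood well above background on neither array. The 2 higher stromal genes were Kitl (0.30) and Pdgfra (0.065), and Cxcl12 had -0.11. All 7 measured neutrophil genes were lower, with a median of -0.79 and summed signals of 13911 and 8598.

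Lymphocytes and mast cells can make Il10 as well. Of their genes, Cd3d, Cd3g, Cd8a, Cd79a, Ncr1 and Ms4a2 stood well above background on neither array. Cd3e (209 with DMSO and 248 with GW4064), Cd28 (1249 and 1345), Lck (163 and 172), Cd79b (282 and 236) and Prf1 (136 and 126) did on both. So did 1 of the 2 probes for Cd4, printed once (1303 and 1228). The other Cd4 probe, printed 10 times, was well above background on neither array (9.73 and 10.6). Lower with GW4064 past 2-fold were the B cell genes Ms4a1 (35.8 and 7.08) and Ebf1 (41.3 and 19.5) and the NK cell gene Klrb1c over its probes (175 and 12.3 on one, 45.5 and 33.0 on the other). The signal of 12.3 lay below the lowest well above background on the GW4064 array (15.1), and 1 spot of Klrb1c lay in a damaged area. Ms4a1 and Ebf1 were dim and well above background on the DMSO array only. Under other settings Ms4a1, Ebf1 and Klrb1c came within 2-fold, up to -0.59, -0.42 and -0.53. The dendritic cell gene Flt3 was past 2-fold upward, from 10.5, not well above background, to 81.5. Its bound was 2.31, with 0.72 to 2.89 over the settings, and its spot lay in a damaged area. The T cell list had 4 measured genes with a median of 0.024 and summed signals of 2925 and 2860. The B cell list had 3 measured genes, all lower, with a median of -1.15 and summed signals of 359 and 251. The NK cell list had 2, both lower, with sums of 312 and 132. Prf1 had -0.18, so that most of this fall came from the Klrb1c probe at 175 and 12.3. The mast cell and basophil list had 2 in opposite directions, Kit (-0.74) and Tpsb2 (0.51), with a median of -0.11 and summed signals of 116 and 135. Of the remaining lists, 5 of 7 dendritic cell genes were measured with a median of -0.041 and summed signals of 223402 and 187880, 4 of 5 endothelial genes with -0.32 and sums of 1731 and 1693, and 2 of 5 erythroid genes with sums of 77.5 and 11.7. The part of the listed cell types in the differences of Il10, Csf1, Il34 and Timp3 was not tested.

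**Figure D4:**
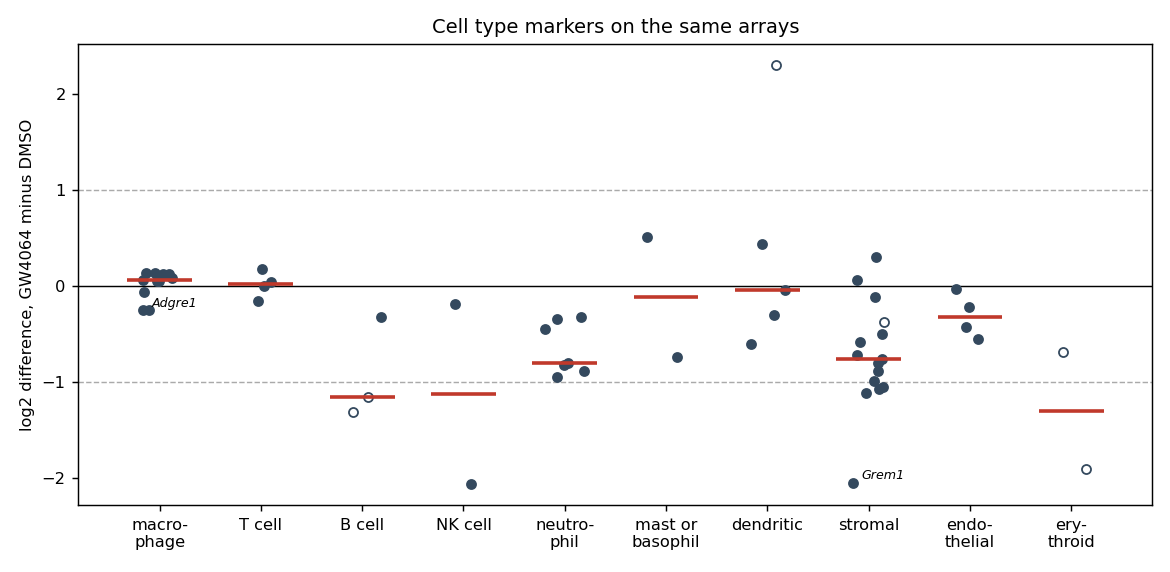
log2 difference, GW4064 minus DMSO, of each measured gene of 10 cell type marker lists. Open points are genes well above background on 1 array only, red bars are medians and dashed lines mark 2-fold. The macrophage genes lie near 0 (median 0.062), and the stromal (-0.76) and neutrophil (-0.79) genes lie lower.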

How the data were processed

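The authors deposited scanner files in which each spot's intensity had been background-subtracted and detrended by Agilent Feature Extraction 10.7.1.1 and not scaled between arrays. They also deposited a log2 table, whose column difference equalled that of the scanner values within 2.78e-06 for the 38801 probes printed once, apart from a constant of 0.0022; it is centred on a baseline not given in the sources used here (column medians 0.035 and -0.051).

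From the intensities, log2 signals minus the 75th percentile of the 43020 non-control spots were computed, spots marked as non-uniform or as outliers (399 with DMSO, 207 with GW4064) were dropped, and copies were averaged. A probe was well above background where more of its kept copies were than were not. A probe well above background on 1 array was set against the higher of its own signal and the lowest one well above background on the other, which is called a bound where the latter was higher and is the plain ratio otherwise (Il10, Il34). Some spots brighter than that lowest signal were not well above background, so a bound is approximate. A gene is the mean of its probes above background on at least 1 array. RefSeq transcripts of GRCm38.p6 named 26581 of 39429 probes, and since the array design used another build, no coordinates are given. No probe sequences were used here.

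No test was made, since each condition had 1 array. All 10 cytokine genes were named, receptors past 1.5-fold with Csf1r, and from other lists genes past 2-fold measured on both arrays; genes outside this rule are said to be chosen after their values were seen, and the marker genes are examples of their lists. The cytokines and lists were chosen with earlier results of these data known. The steps were tested on simulated data with 4-fold changes in bright probes. The simulation held no changed dim probe, no probe well above background on 1 array only and no marked spots. Alternatives were quantile normalization, centring on the probe median or the spike-in RNA, loess (span 0.3), the deposited table, normexp (offset 50) on the median spot intensity, marked spots kept, other filters on dim probes, the brightest probe, damaged areas left out, and thresholds of 1.5-fold and 4-fold. The arrays shared a slide and a scan. Normexp was run with limma 3.58.1 under R 4.3.3, loess with statsmodels 0.14.6, and the rest under Python 3.11.15 with pandas 2.3.3, numpy 2.4.6 and matplotlib 3.10.9.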

Additional observations from a re-analysis of the deposited data

How the results depend on the processing

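No paired analysis was possible because there was a single array for each condition. Il10 was the 1 cytokine gene past 2-fold; after normexp, with probes well above background on both arrays alone, and at a 4-fold threshold the number was 0. The median of the measured cytokine genes (-0.44) was -0.63 centred on the spike-in RNA and -0.22 over the 9 matched genes with no filter. Of 44 values of Tnf, Il10, Il15 and Csf1 under other settings, 40 moved by less than the error on the array. Tnf (-0.19) and Csf1 (-0.71) moved more with the spike-in RNA, and Il10 with normexp (-0.50) and in its 3 copies well above background on both arrays (-1.03), chosen after seeing the data. None changed sign among Il10, Il15 and Csf1. Over all probes 1169 were past 2-fold, and 233 after normexp, 456 with probes above background on both arrays, 3301 with no filter, 615 without damaged areas, 1816 in the deposited table, where each probe keeps its own value, and 2434 and 274 at 1.5-fold and 4-fold. Centring on the spike-in RNA lowered the share of genes past 2-fold that were higher from 42.9% to 28.8%. Signals near 15 limit Il10, Il34 and Tnfsf4.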

Other observations

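Transcription factors that act on these cytokine genes were followed by a list of 25, of which 24 were measured, 10 higher and 14 lower, with a median of -0.062. None was 2-fold or more different either way, and the genes below were chosen after their values were seen. Maf, a factor known to drive Il10 in macrophages, had signals of 1419 and 1493 and a difference of 0.0075. Nr4a1, an early response factor, was the only one past 1.5-fold, at -0.81, and its spot lay in a damaged area, as did that of Irf4. Bcl3, a nuclear IκB protein that dampens inflammatory genes, had 0.56, and Prdm1, which takes part in Il10 expression, had -0.56. Irf4, a factor of M2 polarization, had -0.48, whereas Irf5, which promotes Il12b and Il23a, had 0.16. Rel, one of the NF-κB subunits, was not well above background.

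Genes that commonly respond to these cytokines were followed by a list of 18, all measured, 9 higher and 9 lower, with a median of -0.011 and 0 past 2-fold. Past 1.5-fold, 3 were higher and 0 lower, next to 4.39% and 5.56% of all genes, and the genes named were again chosen after their values were seen. Bcl2a1d, a survival gene with close copies that its probe may also read, rose from 43851 to 87517 (0.93). Socs2, an inhibitor of cytokine receptor signaling, had 0.81 over 3 probes, and Ccl17, a chemokine induced by IL-4 and GM-CSF, had 0.60, which came within 1.5-fold after normexp (0.36) and with the spike-in RNA (0.41). Socs3, which is induced by IL-10 and IL-6, had -0.23, and Il1rn, an IL-10 responsive gene, had 0.50. Tnfaip3 and Birc3, targets of TNF signaling, had 0.046 and -0.068, and Nfkbia had 0.33.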
